A study of Homo sapiens with 12 samples.

Results

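The effect of eIF4G1 silencing on mRNAs in light polysomes was measured as 4GKD minus WT over the light polysome (LMW) arrays of MCF10A, a non-tumorigenic human mammary epithelial cell line, although its origin is labelled breast cancer. The comparison uses 4 of the 12 arrays of the series, matched by title into 2 pairs, a mock pair and a 10 Gy pair. The 4GKD cells carry a short hairpin RNA against eIF4G1 whose expression is switched on by doxycycline, and were either mock-treated or irradiated with 10 Gy from a linear accelerator. The WT cells have the genotype label WT and were given the same treatments. Doxycycline or a control hairpin in the WT cells is not mentioned in the sources used here, so loss of eIF4G1, the hairpin and the drug cannot be told apart. These sources also give neither the interval between irradiation and harvest nor the number of hairpins or clones. Each condition had 1 array in each of 3 preparations, which are the light polysome pool, the heavy polysome pool (HMW) and unfractionated RNA (Total). Ribosome numbers are given only for the WT mock pools, 1 to 3 ribosomes in LMW and 4 or more in HMW. A gene is one probe set, the brightest of those that carry a single symbol. Of 19775 such genes, 10157 reached a log2 intensity of at least 6 in at least 4 arrays and were tested.

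As background, eIF4G1 is the scaffold of the cap-binding complex eIF4F: it holds the cap-binding protein eIF4E and the helicase eIF4A, contacts the poly(A)-binding protein, and recruits the small ribosomal subunit through eIF3. An mRNA that initiates often carries many ribosomes and sediments in heavy polysomes, and one that initiates rarely, or has a short coding sequence, sediments with the light ones. The amount of an mRNA in the light pool therefore reflects its cellular level as well as its distribution along the gradient, and array intensities are relative within each array.

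Promoter sequences are shown for members of 2 gene groups described below, interferon-stimulated and mitotic genes. Windows were printed only for called members that hold the elements, so they do not show how common these are. Not all called members hold them, and counts for the whole lists are given below. The first set holds 3 interferon-stimulated genes called higher in 4GKD light polysomes, with the core of the interferon-stimulated response element in capitals, which is GAAA, any 2 bases and GAAA on either strand. Each window holds the 150 bases before the first listed transcription start, from RefSeq on GRCh38.p14, read 5′ to 3′ on the gene's strand. IFIH1 lies at chr2:162318685-162318834 on the minus strand, PARP14 at chr3:122680689-122680838 on the plus strand and SAMD9 at chr7:93117980-93118129 on the minus strand.
IFIH1: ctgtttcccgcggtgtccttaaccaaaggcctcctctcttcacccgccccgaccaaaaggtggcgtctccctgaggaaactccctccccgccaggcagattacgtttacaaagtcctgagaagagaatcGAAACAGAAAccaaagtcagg
PARP14: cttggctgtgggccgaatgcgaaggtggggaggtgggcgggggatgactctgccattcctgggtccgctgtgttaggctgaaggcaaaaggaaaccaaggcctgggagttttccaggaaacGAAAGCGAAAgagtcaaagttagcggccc
SAMD9: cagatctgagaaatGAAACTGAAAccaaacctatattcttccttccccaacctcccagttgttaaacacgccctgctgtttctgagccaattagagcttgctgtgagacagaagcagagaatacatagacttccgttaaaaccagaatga

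The second set holds 3 mitotic genes with 2 elements in capitals, the cell cycle homology region (TTTGAA or TTCGAA) and CCAAT, either of which may lie on the opposite strand as its reverse complement. CENPA, the CDK-binding protein CKS2 (-2.08) and the spindle pole protein ASPM (-1.50) were called lower in 4GKD light polysomes, and CKS2 and ASPM are named only for their promoters. CENPA lies at chr2:26785906-26786055 on the plus strand, CKS2 at chr9:89311045-89311194 on the plus strand and ASPM at chr1:197146670-197146819 on the minus strand.
CENPA: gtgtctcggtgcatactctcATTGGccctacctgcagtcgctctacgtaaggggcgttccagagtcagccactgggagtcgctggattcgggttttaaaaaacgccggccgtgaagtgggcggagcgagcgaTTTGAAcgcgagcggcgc
CKS2: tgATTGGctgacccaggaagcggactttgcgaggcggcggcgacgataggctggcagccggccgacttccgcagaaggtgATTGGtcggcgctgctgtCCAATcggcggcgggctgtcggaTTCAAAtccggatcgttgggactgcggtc
ASPM: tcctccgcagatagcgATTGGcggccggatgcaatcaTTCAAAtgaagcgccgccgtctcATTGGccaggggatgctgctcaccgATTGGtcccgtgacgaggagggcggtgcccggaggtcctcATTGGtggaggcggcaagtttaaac

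The arrays were examined before any gene was described, because the WT light polysome arrays stood apart from each other. In 4GKD cells the 10 Gy and mock LMW arrays correlated across the genes tested at r = 0.984, against r = 0.907 in WT cells. Beyond 2-fold between 10 Gy and mock were 135 genes in 4GKD LMW and 2041 in WT LMW, of which 1620 were higher after 10 Gy. The heavy pool was alike, with 86 genes in 4GKD HMW and 1830 in WT HMW, of which 1607 were higher after 10 Gy. In Total the same count was 98 genes in 4GKD and 9 in WT. The WT mock LMW array correlated with its own Total array at 0.712, while the other LMW arrays reached 0.857 (4GKD mock), 0.859 (4GKD 10 Gy) and 0.856 (WT 10 Gy) with theirs. Among the WT arrays, the one most like 4GKD mock LMW was WT mock HMW, at 0.941, against 0.896 for WT mock LMW. These correlations run across genes, which are not independent replicates. Because of them, values are given by pair for part of the genes and lists. A single difference given for a gene is the mean of the 2 pairs, which can lie far apart. Whether the cut between pools fell at the same ribosome number in every gradient was not tested. Of 28 keratin and junction genes, 17 had a log2 value of 6 or more in all 4 LMW arrays and 3 were below it in all 4. Their intensities summed to 76183 (mock) and 83958 (10 Gy) in 4GKD cells, against 44511 and 36715 in WT cells. All 7 endothelial genes and 7 of 9 blood cell genes stayed below a log2 value of 6 in the 4 arrays. Fibroblast and mesenchymal markers summed to 11908 and 11802 in 4GKD cells, against 10692 and 11108 in WT cells, and 10 of the 19 were below 6 in all 4 arrays. Single markers moved both ways. In the test described below, 4 of the 11 tested were called higher and 3 lower in LMW, against 10.3% and 5.10% of all genes. Both WT LMW arrays were under 6 for 2 of these 4, and both 4GKD LMW arrays for 1 of the 3.

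The silenced gene was lower in every 4GKD light polysome array. EIF4G1 had intensities of 127 in mock and 87.2 in 10 Gy 4GKD cells, against 474 and 370 in WT cells, so that 26.8% and 23.5% of the WT level was left. On the log2 scale these are 6.99 and 6.45 in 4GKD cells, against 8.89 and 8.53 in WT cells, and the groups do not overlap. The difference was -1.99 (SE 0.43, limma adjusted p = 1.33e-04, 2 pairs). It was -3.69 in HMW and -2.47 in Total. The difference in LMW was less negative than that in HMW by 1.70 (SE 0.29, adjusted p = 2.07e-04), while against Total it was 0.48 higher (SE 0.52, adjusted p = 0.651). In a fit of all 12 arrays 0 genes, EIF4G1 included, were called between LMW and HMW. The other EIF4G1 probe set gave a mean of -0.94 in LMW, with -1.44 in the mock pair and -0.44 in the 10 Gy pair.

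Over all genes, 1047 were called higher and 518 lower in 4GKD light polysomes, at a limma adjusted p under 0.05. These are 10.3% and 5.10% of the genes tested, and the median difference of all genes was -0.00. Beyond 2-fold were 1007 of the higher and 470 of the lower genes, and 1555 of the 1565 called genes had the same sign in both pairs. The fit estimated each gene's spread from 1 residual degree of freedom and pooled it completely over genes of like intensity, so a p-value follows from the size and the level of a difference and takes no account of how far the pairs of that gene differ. With the treatment left out of the fit, 231 genes were called higher and 55 lower. Both WT LMW arrays were under the filter level of 6 for 196 of the 1047 higher genes, and both 4GKD LMW arrays for 75 of the 518 lower genes. All 6 arrays of that genotype were under it for 19 and 23 of these, which passed the filter only through the genotype where they were high. Differences against values under 6 are printed as fitted and their size is uncertain. Nothing says that the arrays came from separate cultures, so the p-values cover the spread between these samples alone, which may be technical.

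In the mock pair, 1700 genes (16.7%) were at least 2-fold higher and 670 (6.60%) at least 2-fold lower in 4GKD. In the 10 Gy pair these were 1370 (13.5%) and 1378 (13.6%). Both pairs passed 2-fold upwards for 790 genes (7.78%) and downwards for 300 (2.95%), and 50 genes passed it in opposite directions. Across the 10157 genes the differences of the pairs, which share no array, correlated at r = 0.571. The plot of the pairs shows called genes along the diagonal and a broad set of uncalled genes below it, higher in the mock pair and lower in the 10 Gy pair.

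**Figure D1:**
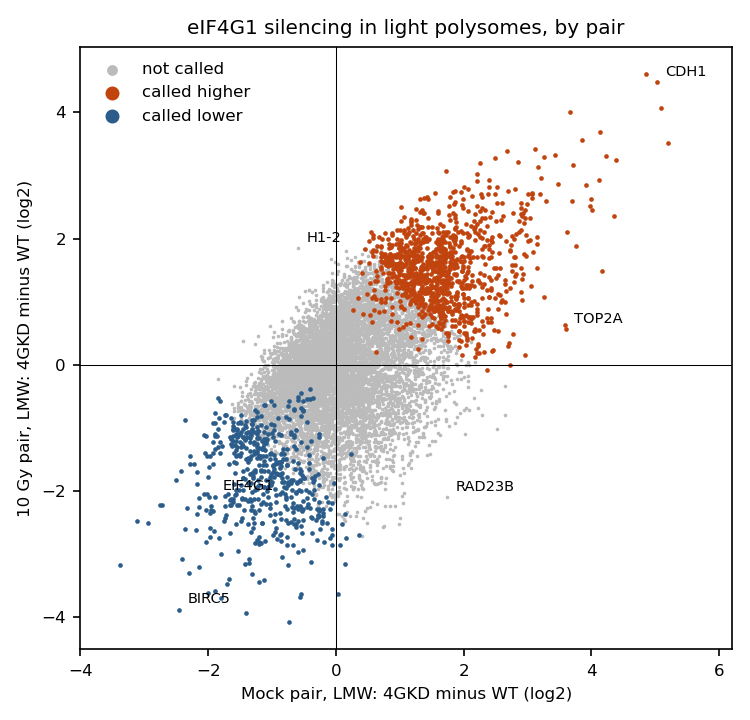
Difference 4GKD minus WT in light polysomes (log2) in the mock pair (horizontal) and the 10 Gy pair (vertical), 1 point for each of 10157 genes. The 1047 genes called higher (orange) lie at the upper right and the 518 called lower (blue) at the lower left. TOP2A and RAD23B lie far from the diagonal.

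The 12 genes named for the largest rises were taken from called genes at 6 or more in both 4GKD LMW arrays. They have varied roles, and for 8 of them both WT LMW arrays lay under the filter level. CDH1, the adherens junction protein E-cadherin, had log2 intensities of 9.60 in mock and 9.75 in 10 Gy 4GKD cells, against 4.58 and 5.27 in WT cells. Both WT values lie under 6, the level used as the filter. The fitted difference was 4.75 (SE 0.41, adjusted p = 1.67e-26). It was 2.82 in HMW and 1.20 in Total. A second CDH1 probe set never exceeded 4.38 in LMW and gave 0.38, so it holds little signal. C3, the central complement protein, had 12.21 and 12.42 in 4GKD cells, against 7.35 and 7.82 in WT cells, all above the filter level. Its difference was 4.73 (SE 0.44, adjusted p = 1.10e-22), against 0.86 in Total.

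AQP3, a water and glycerol channel of epithelia, rose by 4.58 and S100P, a calcium-binding protein, by 3.84. Interstitial collagenase MMP1 had log2 values of 8.42 and 6.78 in 4GKD cells, against 3.22 and 3.27 in WT cells, and stromelysin MMP10 had 8.12 and 6.61 in 4GKD cells, against 3.91 and 3.30 in WT cells. In both the irradiated 4GKD array was the lower of the 4GKD arrays. ID2, an inhibitor of basic helix-loop-helix factors, rose by 3.91, ABCA12, the lipid transporter of the skin barrier, by 3.82, and the serine protease inhibitor SERPINB3 by 3.71. DSG3 (desmoglein 3) rose by 3.52, the epithelial transcription factor ELF3 by 3.44 and HSD17B2, which oxidises sex steroids, by 3.38. AQP3, MMP1, MMP10, ID2 and ELF3 were under 6 in all 6 WT arrays, and CDH1, ABCA12 and DSG3 in both WT LMW arrays, so that the fitted size of these 8 rises is uncertain. In Total the 12 genes ranged from -1.43 (SERPINB3) to 1.43 (ABCA12).

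The 12 genes named for the largest falls were taken from called genes at 6 or more in both WT LMW arrays. They included BIRC5, CENPH, CENPK and OIP5 of chromosome segregation and GINS2 of replication, beside genes of other roles. TCF19, a growth-regulated transcription factor, had log2 values of 5.77 and 5.11 in 4GKD cells, against 9.15 and 8.28 in WT cells. It fell by 3.27 on the log2 scale (SE 0.41, adjusted p = 5.66e-13), with -2.27 in Total. BIRC5 (survivin, of the chromosomal passenger complex) had 8.48 and 6.81 in 4GKD cells, against 10.94 and 10.69 in WT cells. It fell by 3.17 in LMW (SE 0.47, adjusted p = 3.63e-09), and its difference was -2.79 in HMW and -2.96 in Total. For BIRC5, 3 further probe sets at a log2 value of 6 or more moved the same way.

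Kinetochore genes CENPH (-2.74) and CENPK (-2.67), the centromere loading factor OIP5 (-2.74), the CDK-interacting phosphatase CDKN3 (-2.59) and MND1, of meiotic recombination (-2.80), were also called lower. So were CHRNA9, an acetylcholine receptor subunit (-2.81), INSC, an adaptor of spindle orientation (-2.79), the kinase NEK7 (-2.73) and NEURL1B, a ubiquitin ligase (-2.72). These are means of the 2 pairs. The mock and 10 Gy pairs gave -1.41 and -3.93 for CENPK and -1.80 and -3.69 for CENPH. They gave -1.89 and -3.58 for NEK7 and -2.01 and -3.61 for CHRNA9. CDKN3 (-1.70 and -3.47), MND1 (-2.30 and -3.30) and OIP5 (-2.41 and -3.08) also fell more in the 10 Gy pair. INSC (-3.11 and -2.48) and NEURL1B (-2.94 and -2.50) fell more in the mock pair. CHRNA9, INSC, MND1 and NEURL1B were under 6 in all 6 4GKD arrays, and TCF19 and CENPK in both 4GKD LMW arrays, so that the fitted size of these 6 falls is uncertain. GINS2, a subunit of the replicative helicase, read -2.67, but its call rests on 1 probe set. Of the other 2 GINS2 probe sets at a log2 value of 6 or more, one gave -0.88 and the other 0.06. Among the 24 genes named by size, 7 had another probe set at this level, and 10 of these 11 probe sets had the same direction as the one used.

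**Figure D2:**
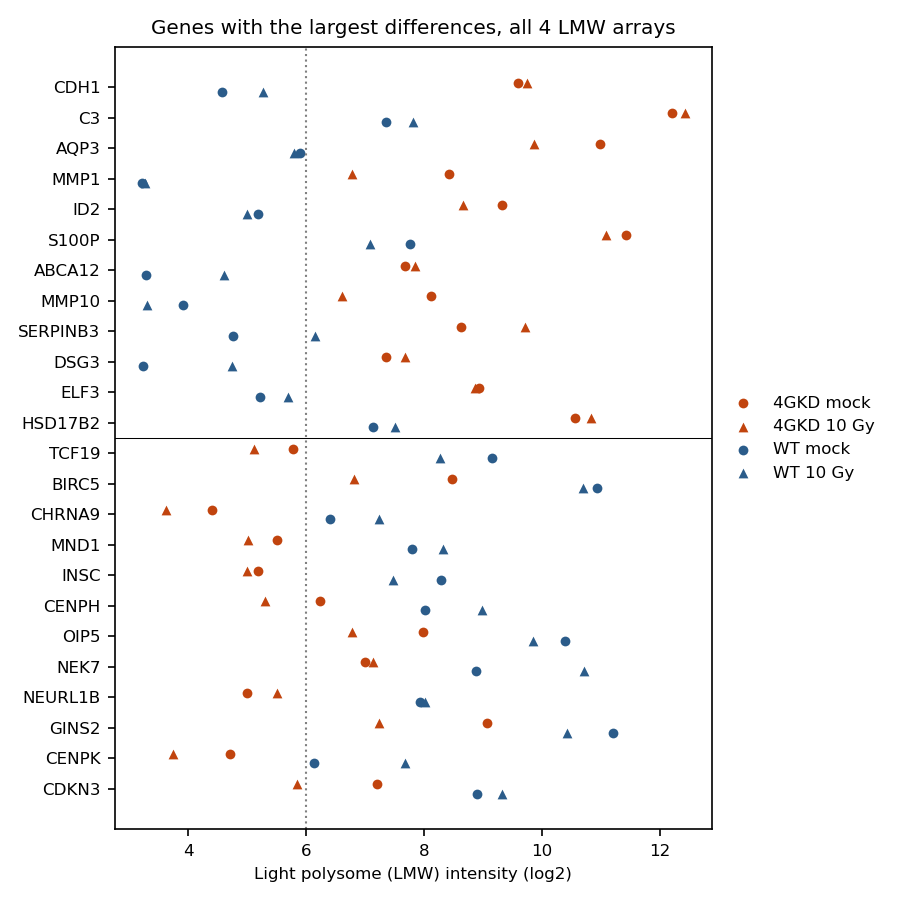
Log2 intensity in the 4 light polysome arrays for the 12 genes with the highest (above the line) and the 12 with the lowest difference, 4GKD (orange, upper of each row) and WT (blue), mock (circles) and 10 Gy (triangles). These 24 genes were chosen for large differences of the same sign in both pairs, so the gap between 4GKD and WT values comes with that choice. They were also required to reach 6 in both LMW arrays of the higher genotype. The dotted line marks the filter level of 6.

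The cap-binding complex itself was measured first among the groups. Of 17 genes of eIF4F and its partners, 0 were called higher and 3 lower in LMW: EIF4G1, EIF4E and EIF4EBP1. Over all genes 10.3% were called higher and 5.10% lower in LMW, 5.82% and 4.09% in HMW and 20.7% and 19.8% in Total. For the LMW effect minus that in Total the shares were 6.76% and 1.11%, and minus that in HMW 10.5% and 5.33%. Counts in every list below stand against these shares. The median of the list was -0.22, against -0.00 for all genes. EIF4E, the cap-binding protein, had log2 values of 8.87 and 8.19 in 4GKD cells, against 9.65 and 10.31 in WT cells. Its difference was -1.45 (SE 0.47, adjusted p = 0.0188), against -0.29 in HMW and 0.07 in Total. The effect in LMW lay below that in HMW by 1.16 and below that in Total by 1.52, and both differences were called, the first not in the fit of all 12 arrays. A second EIF4E probe set gave -1.88 in LMW. The EIF4E difference without the 10 Gy pair was -0.78 and was not called.

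EIF4EBP1, the repressor that competes with eIF4G1 for eIF4E, had 9.78 and 9.34 in 4GKD cells, against 11.24 and 10.63 in WT cells. It fell by 1.37 (SE 0.42, adjusted p = 0.0131) in LMW, with -1.39 in HMW and -0.66 in Total. EIF4G2, the eIF4G1 relative that lacks the eIF4E site, read -0.22 in LMW, -0.10 in HMW and -0.02 in Total and was called in none. EIF4B, a helicase cofactor, gave 0.66 and LARP1, which binds terminal oligopyrimidine mRNAs, 0.59, both uncalled in LMW. The poly(A)-binding protein gene PABPC1 gave 0.38, and the poly(A)-binding inhibitor PAIP2 gave -1.05 without a call.

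Other initiation factors moved individually. Of 12 eIF3 subunits, 3 were called higher and 0 lower in LMW, against 10.3% and 5.10% of all genes, with a median of 0.13. The higher calls were 1 without the 10 Gy pair and 4 without the mock pair. EIF3A, the largest eIF3 subunit, had 10.33 and 10.58 in 4GKD cells, against 8.68 and 8.78 in WT cells, and rose by 1.73 (adjusted p = 0.00297). EIF3D rose by 1.09 and EIF3B by 0.81, while EIF3J, the loosely bound subunit, gave -0.76 without a call. Of 22 further initiation factors, 4 were called higher and 2 lower, and 0 with the treatment left out of the fit. EIF5B, the GTPase of subunit joining, had 8.46 and 9.02 in 4GKD cells, against 4.45 and 6.57 in WT cells. It rose by 3.23 (SE 0.41, adjusted p = 1.45e-12), with 2.30 in HMW and 0.25 in Total. Its WT arrays differed from each other by more than its 4GKD arrays did. EIF1AX, of start codon scanning, fell by 1.03 and EIF2S2, the eIF2 beta subunit, by 0.83.

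The aminoacyl-tRNA synthetases, which charge tRNAs with amino acids, were higher in the light pool, with smaller median differences in the other preparations. Of 17 synthetase genes, 12 were called higher and 0 lower in LMW, against 10.3% and 5.10% of all genes, and 16 were higher in both pairs. Their median difference was 1.22 in LMW, 0.16 in HMW and 0.22 in Total. In HMW 2 were called higher, against a background of 5.82% higher and 4.09% lower, and in Total 8 were called higher and 1 lower, against 20.7% and 19.8%. The effect in LMW exceeded that in HMW for 14 of the 17 synthetases, where 10.5% of all genes were called higher and 5.33% lower in this difference. None of the 14 was called in a fit of all 12 arrays, with or without either LMW pair. In LMW itself that fit without the 10 Gy pair called 9 of the 17 higher and without the mock pair 11, and 3 were called with the treatment left out of the fit.

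EPRS1, the glutamyl-prolyl-tRNA synthetase, had log2 values of 11.85 and 11.64 in 4GKD LMW, against 7.88 and 9.13 in WT LMW. Its difference was 3.24 (SE 0.43, adjusted p = 2.77e-11), and 2 further probe sets gave 2.12 and 2.04. In HMW the gene had 13.19 and 12.94 in 4GKD cells, against 11.80 and 12.64 in WT cells, and in Total 11.39 and 11.39 in 4GKD cells, against 11.64 and 11.45 in WT cells. The relative intensity of EPRS1 in Total was thus no higher in 4GKD cells, with a difference of -0.15 that was not called. LARS1, the leucine enzyme, rose by 2.44 in LMW and VARS1, the valine enzyme, by 1.72. The smallest differences were those of WARS1 (0.74), FARSA (0.40) and YARS1 (0.22), which were not called.

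Heat shock proteins and chaperones were described next. Of 24 genes, 14 were called higher and 1 lower in LMW, with a median of 0.85, against -0.04 in HMW and 0.07 in Total. The effect in LMW exceeded that in HMW for 15 and lay below it for 2, and 0 of these calls were left in the fit of all 12 arrays. HSP90B1, the HSP90 of the endoplasmic reticulum, had 9.59 and 9.46 in 4GKD cells, against 6.83 and 7.06 in WT cells, and rose by 2.58 (SE 0.45, adjusted p = 1.11e-06). HSPA4, a nucleotide exchange factor for HSP70, rose by 2.21 and HSPA9, the mitochondrial HSP70, by 1.59. HSPE1, the small mitochondrial co-chaperonin, had 10.54 and 10.10 in 4GKD cells, against 11.58 and 11.53 in WT cells, and fell by 1.23 (adjusted p = 0.00973). HSF1, the heat shock transcription factor, gave -0.31 and was not called. The CCT subunits of the cytosolic chaperonin, picked out after their values were seen, gave 5 of 7 calls in LMW, with differences of 0.56 to 0.96. They lay between -0.26 and 0.04 in HMW and between 0.08 and 0.20 in Total, and the difference between LMW and HMW was called for all 7, but for 0 of them in the fit of all 12 arrays or without either LMW pair. Of the 24 chaperone genes, 8 were called higher without the 10 Gy pair, 12 without the mock pair and 2 with the treatment left out of the fit.

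Differences were small for mRNAs of cytosolic ribosomal proteins. Of 52 genes, 0 were called higher and 8 lower in LMW, with a median of -0.21 and a range of -0.90 to 0.19, and 38 were lower in both pairs. Their median was 0.06 in HMW, with 0 calls, and 0.15 in Total, where 28 were called higher and 0 lower. The LMW effect lay below the Total effect for 19 genes, where the background was 6.76% higher and 1.11% lower, and below the HMW effect for 19. Neither difference had a call in this list in the fit of all 12 arrays. RPS25, of the small subunit, had log2 values of 11.99 and 12.02 in 4GKD cells, against 12.69 and 13.13 in WT cells, and fell by 0.90 (SE 0.23, adjusted p = 0.00202). RPS12 fell by 0.67, and RPL36 gave -0.66 with an adjusted p of 0.0638. RPL14, at 0.19, was the highest member. These are bright genes whose standard errors are small because the pooled spread falls with intensity, and with 1 spread for all intensities 0 of the 52 were called, as with the treatment left out of the fit. Without the mock pair 13 were called lower. Many ribosomal protein genes have processed pseudogenes that their probes may also detect.

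Mitochondrially encoded transcripts, made and translated inside the organelle, rose in the light pool. All 7 on the array were higher in both pairs, and 6 were called, with a median of 1.49 in LMW, 0.43 in HMW and -0.19 in Total. COX1, the catalytic subunit of cytochrome oxidase, had 13.99 and 14.20 in 4GKD cells, against 12.80 and 12.41 in WT cells, and rose by 1.49 (SE 0.17, adjusted p = 5.22e-16). Complex I subunits ND2 and ND4 rose by 2.35 and 1.79. COX2 rose by 1.54, COX3 by 1.14 and ATP6 by 1.12, and ND6, the light strand transcript, gave 0.32 without a call. In Total COX1 gave -0.07, COX2 -0.19 and ATP6 -0.19. Nuclear genes of the respiratory chain had a median of -0.25 in LMW, with 5 of 67 called higher and 4 lower. Among mitochondrial ribosomal proteins the median was -0.34, with 2 of 74 called higher and 1 lower. Both lists lie near or below the 10.3% higher and 5.10% lower of all genes.

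**Figure D3:**
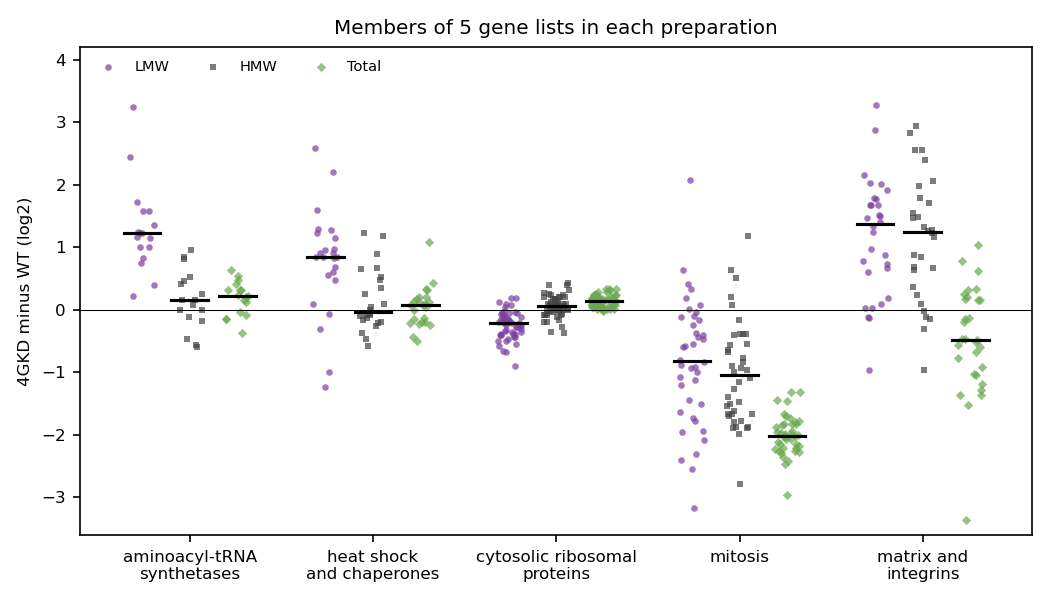
Difference 4GKD minus WT (log2) for each member of 5 gene lists in light polysomes (LMW, purple), heavy polysomes (HMW, grey) and total RNA (Total, green), with black bars at the medians. Aminoacyl-tRNA synthetases and chaperones have medians of 1.22 and 0.85 in LMW and medians near 0 in the other preparations, and mitotic genes lie lowest in Total, at a median of -2.01.

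Epithelial keratin and junction genes formed the group with the highest median. Of 25, 22 were called higher and 0 lower in LMW, with a median of 1.70, against 1.21 in HMW and 0.43 in Total. Over all genes 10.3% were called higher and 5.10% lower in LMW. Both WT LMW arrays were under 6 for 6 of the 22, DSG3 and DSC2 among them, so the size of these rises is uncertain. Desmosomal cadherins DSG3, given above, and DSC2 rose, the second with 7.20 and 7.39 in 4GKD cells, against 4.30 and 4.90 in WT cells. KRT14, a basal keratin, had 12.64 and 13.23 in 4GKD cells, against 12.89 and 12.60 in WT cells. Its groups overlap, at a difference of 0.19 in LMW, and it was called lower in Total (-1.29) and in HMW (-1.19). CTNNB1 (beta-catenin) gave 0.42 and PKP3 (plakophilin 3) 0.66, both uncalled. Over the 25 genes the median was 1.58 in the mock pair and 1.59 in the 10 Gy pair. With the treatment left out of the fit, 9 were called higher. In these bulk samples a change in the share of cells that express such genes and a change per cell cannot be told apart.

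Extracellular matrix and integrin mRNAs had positive medians in both polysome pools and a negative one in total RNA. Of 30, 17 were called higher and 0 lower in LMW, with a median of 1.37. Both WT LMW arrays were under 6 for 2 of these 17. The median was 1.24 in HMW, with 16 called higher, and -0.48 in Total, with 4 called higher and 17 lower. The effect in LMW exceeded that in Total for 17, for 6 in the fit of all 12 arrays, and for 2 and 3 in it without the mock and the 10 Gy pair. ITGB4, the beta subunit of the hemidesmosome integrin, had 11.43 and 11.59 in 4GKD cells, against 8.94 and 8.32 in WT cells, and rose by 2.88 (SE 0.44, adjusted p = 9.05e-09), with 1.03 in Total. ITGA2, a collagen receptor subunit, had 8.15 and 8.62 in 4GKD cells, against 4.90 and 7.56 in WT cells, a rise of 2.16 that was larger in the mock pair. COL4A6, a basement membrane collagen, gave -0.97 and SPARC -0.11, neither called. Leaving out the 10 Gy pair, 11 of the 30 were called higher and without the mock pair 13, and 5 with the treatment left out of the fit.

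Of 14 matrix proteases and inhibitors, 6 were called higher and 0 lower, with 3 higher without the mock pair and 2 with the treatment left out of the fit. Besides MMP1 and MMP10, the sheddase ADAM17 rose by 2.10, and its Total difference was 0.33. Plasminogen activator PLAU (-0.21) and TIMP2 (-0.06) were not called. Of 20 squamous differentiation genes, 8 were called higher and 1 lower, against 10.3% and 5.10% of all genes. All 6 WT arrays were under 6 for 2 of these 8, and for 2 of the 6 proteases and inhibitors called higher. Such genes passed the filter only through the 4GKD arrays, and the fitted size of their rises is uncertain. S100A7 (psoriasin) rose by 3.38, with 8.06 and 7.33 in 4GKD cells, against 4.14 and 4.49 in WT cells. Both of its WT values lie under 6, so the size of its rise is uncertain. PI3 (elafin), a protease inhibitor of the cornified envelope, had 8.59 and 8.53 in 4GKD cells, against 10.20 and 9.58 in WT cells, and fell by 1.33.

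Cell cycle lists had negative medians in every preparation. Of 41 DNA replication genes, 0 were called higher and 14 lower in LMW, with a median of -0.79, against -1.40 in HMW and -1.20 in Total, where 40 were called lower. The LMW median was -0.53 in the mock pair and -1.26 in the 10 Gy pair. TK1 (thymidine kinase) had 8.91 and 7.54 in 4GKD cells, against 10.95 and 9.84 in WT cells, and fell by 2.17 (adjusted p = 1.42e-04). GINS1, of the replicative helicase, fell by 1.95. RRM1, the large ribonucleotide reductase subunit, gave 0.35 in LMW without a call and was called lower in Total, at -1.43. Likewise the helicase subunit MCM2 gave -0.24 in LMW, -2.23 in HMW and -1.56 in Total, and its LMW effect exceeded that in HMW by 1.98 (SE 0.24, adjusted p = 3.27e-06). Over the replication list this difference was called higher for 17 genes and lower for 0, and for 0, MCM2 included, in the fit of all 12 arrays. Without the 10 Gy pair 6 replication genes were called lower in LMW, without the mock pair 15, and 2 with the treatment left out of the fit.

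Of 40 mitosis genes, 1 was called higher and 14 lower in LMW, with a median of -0.82, against -1.04 in HMW and -2.01 in Total, where all 40 were called lower. The LMW effect exceeded the Total effect for 20 of the 40, and for 0 in the fit of all 12 arrays. The median was -0.13 in the mock pair and -1.06 in the 10 Gy pair. SPC25, of the kinetochore, had 7.07 and 5.37 in 4GKD cells, against 8.74 and 8.77 in WT cells, and fell by 2.54 (adjusted p = 1.88e-07). The centromeric histone CENPA fell by 2.40 in LMW, with -1.82 in Total. KIF4A, a chromosome-associated kinesin, gave 0.41 in LMW and CENPE, a kinetochore motor, 0.63, neither called. In Total KIF4A gave -1.95 and CENPE -1.83. Without the 10 Gy pair 3 mitosis genes were called lower in LMW and without the mock pair 10, and 4 with the treatment left out of the fit.

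TOP2A, the DNA topoisomerase of dividing cells, was the mitosis gene called higher in LMW. It had log2 values of 9.42 and 8.94 in 4GKD LMW, against 5.82 and 8.37 in WT LMW. The WT mock array was far below the other 3, and the difference was 3.60 in the mock pair and 0.57 in the 10 Gy pair. In Total it had 8.78 and 7.72 in 4GKD cells, against 10.50 and 10.52 in WT cells. The fitted difference was 2.08 in LMW and -2.26 in Total, and without the mock pair the LMW difference was 0.57 and was not called. Another TOP2A probe set gave 0.16 in LMW, with opposite signs in the pairs.

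Repair genes of homologous recombination and the Fanconi pathway included 2 called higher and 3 lower among 24 in LMW, against 10.3% and 5.10% of all genes. Their median was -0.33 in LMW and -0.83 in Total. The LMW median was 0.09 in the mock pair and -0.72 in the 10 Gy pair, and without the 10 Gy pair 0 were called lower. RAD50, of the complex that senses double-strand breaks, had 7.71 and 8.38 in 4GKD cells, against 4.50 and 5.42 in WT cells. It rose by 3.09 (SE 0.40, adjusted p = 5.70e-12), with 1.78 in HMW and 0.42 in Total. WRN, the helicase of Werner syndrome, rose by 1.83, and MRE11, a nuclease partner of RAD50, gave 1.07 at an adjusted p of 0.0514. Both WT LMW arrays were under 6 for the 2 genes called higher, RAD50 and WRN, so the size of these rises is uncertain. RAD51AP1, an accessory factor of strand exchange, fell by 2.27, the Fanconi ubiquitin-conjugating enzyme UBE2T by 1.99 and RAD54L by 1.17. Of 27 p53 target genes, 2 were called higher and 0 lower, against 10.3% and 5.10% of all genes. Their median was 0.38 in the mock pair and -0.03 in the 10 Gy pair, and without the mock pair 1 was called higher and 2 lower. XPC, of damage recognition, rose by 1.56 and the kinase PLK2 by 1.30.

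The promoters of the mitosis list held the elements printed above at a higher share than the promoters of all genes tested. The window for counting ran from 250 bases before to 50 after the first listed start, on both strands, and 8409 of the 10157 genes had one. The cell cycle homology region was in 27 of 35 mitosis promoters (77.1%), against 10.9% of genes tested. Both this element and CCAAT were in 23 of 35 (65.7%), against 4.70% of genes tested and 6.58% of all 27305 promoters. Among genes called lower in LMW the pair of elements was in 11.0% of 409 promoters, and among those called higher in 3.33% of 902. Within the mitosis list 7 of the 11 promoters of genes called lower held both. DNA replication promoters held both in 2 of 35. A match to these short letters is a description of the sequence, not a site.

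Interferon-stimulated genes had positive medians in all 3 preparations. Of 26, 8 were called higher and 0 lower in LMW, with a median of 0.59, against 0.37 in HMW and 0.51 in Total, where 16 were called higher. Both WT LMW arrays were under 6 for 5 of the 8, so the size of these rises is uncertain. The LMW median was 0.29 with no filter. It was 0.37 with a filter of at least 6 in at least 2 LMW arrays. IFIH1, a cytosolic sensor of double-stranded RNA, had 6.55 and 6.82 in 4GKD cells, against 4.29 and 4.78 in WT cells, and rose by 2.14 (SE 0.41, adjusted p = 1.33e-05), with 1.22 in Total. PARP14 rose by 2.01 and SAMD9, an antiviral protein, by 1.93. IFI6, an interferon-induced mitochondrial protein, had the most negative difference between LMW and Total among the genes named for it. It had 6.50 and 6.70 in 4GKD LMW, against 6.42 and 6.21 in WT LMW, a difference of 0.29, while in Total it rose by 2.67. The response element core was in 13 of 22 promoters of the list (59.1%), against 2.54% of genes tested and 3.65% of all promoters, and in 6 of the 8 promoters of members called higher. With the 10 Gy pair left out 1 of the 26 was called higher and without the mock pair 6, and 1 with the treatment left out of the fit.

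Iron and antioxidant genes included 1 called higher and 7 lower among 19. GCLM, the modifier subunit of glutathione synthesis, had 9.23 and 8.53 in 4GKD cells, against 10.47 and 10.00 in WT cells, and fell by 1.35 (adjusted p = 0.0278). SRXN1 (sulfiredoxin) fell by 1.26. FTL, the ferritin light chain whose mRNA carries an iron-responsive element, had 11.58 and 11.43 in 4GKD LMW, against 12.69 and 12.07 in WT LMW, and fell by 0.87. In Total it rose by 0.70. The 4 metallothioneins of the list, picked out after their values were seen, were called lower in each preparation. Among them MT1F had 12.14 and 12.17 in 4GKD LMW, against 13.11 and 13.20 in WT LMW (adjusted p = 1.48e-04 in limma). Near-identical metallothionein copies may share probes. AKR1C1, an aldo-keto reductase, rose by 1.14 in LMW and by 1.10 in Total.

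Long coiled-coil golgins and tethers had a higher median in heavy than in light polysomes. Of 19, 4 were called higher and 0 lower in LMW, against 10.3% and 5.10% of all genes, with a median of 0.79. Both WT LMW arrays were under 6 for 3 of the 4, so the size of these rises is uncertain. In HMW 12 were called higher and 1 lower, against 5.82% and 4.09%, with a median of 1.24. Without the 10 Gy pair 0 were called in LMW, and 1 was without the mock pair or with the treatment left out of the fit. The LMW effect lay below that in HMW for 6 and above it for 0, with 0 calls in the fit of all 12 arrays. PCM1, of centriolar satellites, had 8.07 and 8.56 in 4GKD cells, against 6.40 and 6.62 in WT cells, and rose by 1.80. AKAP9, a scaffold of the Golgi and centrosome, rose by 1.30 in LMW and 3.27 in HMW, a difference of -1.97 that was called.

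**Figure D4:**
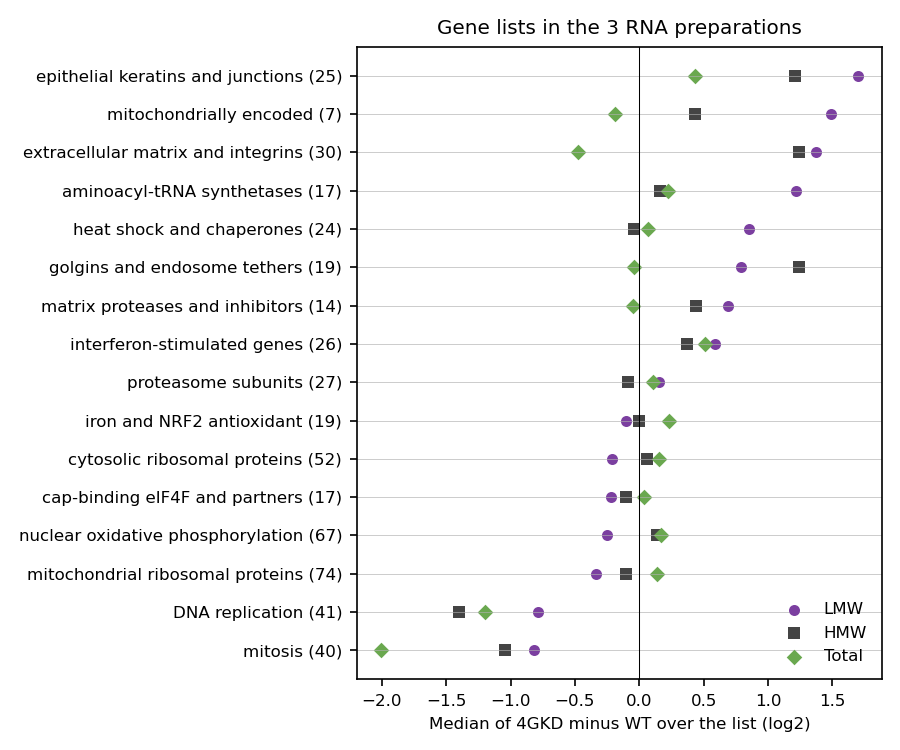
Median difference 4GKD minus WT (log2) over 16 gene lists in light polysomes (LMW), heavy polysomes (HMW) and total RNA (Total), with the number of genes tested in parentheses. Keratin and junction genes lead in LMW at 1.70, matrix genes are positive in both pools and negative in Total, and the cell cycle lists are negative in all 3 preparations.

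The effect in light polysomes was then set against that in total RNA. Of the 1047 genes called higher in LMW, 425 (40.6%) were also called higher in Total, 532 were not called and 90 were called lower. The 425 are 20.2% of the genes called higher in Total. Of the 518 called lower in LMW, 398 (76.8%) were also lower in Total, 115 were not called and 5 were higher. The 398 are 19.8% of those called lower in Total. Calls in Total and LMW were unlike in size, so these shares do not compare like with like. The smallest called difference was 0.12 in Total and 0.40 in LMW. Beyond 2-fold were 157 of the 2100 genes called higher in Total, against 1007 of the 1047 in LMW. The difference of the effects itself was called higher in LMW for 687 genes (6.76%) and lower for 113 (1.11%). Among the 1047 genes called higher in LMW, 508 were also called in this difference. In a fit of all 12 arrays 85 and 3 genes were called. That fit gives each gene 1 spread for the 3 preparations, moderated towards its trend with intensity.

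DCN (decorin, a matrix proteoglycan) had the highest difference between LMW and Total. It had log2 values of 9.19 and 9.09 in 4GKD LMW, against 5.94 and 5.81 in WT LMW, and 7.05 and 6.93 in 4GKD Total, against 10.15 and 10.54 in WT Total. The direction reversed between the preparations, with 3.27 in LMW and -3.36 in Total, and the difference of the effects was 6.62 (SE 0.51, adjusted p = 2.45e-34). Further DCN probe sets at up to 7.94 and 8.54 gave 2.90 and 2.59 in LMW. In HMW decorin gave 2.82.

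SERPINB3 likewise rose in LMW and fell by 1.43 in Total, with a difference of the effects of 5.14. CPD, a carboxypeptidase of the secretory pathway, rose by 1.59 in LMW against -1.73 in Total, the transcription factor ZBTB16 by 1.77 against -1.42, and FBN2 (fibrillin 2) by 2.01 against -1.37. Of the 5 genes called lower in LMW and higher in Total, IFRD1, a transcriptional coregulator with an upstream open reading frame, gave -1.33 in LMW and 0.36 in Total. Its LMW difference was -0.27 in the mock pair and -2.39 in the 10 Gy pair, and it was not called without the 10 Gy pair. IFTAP, an intraflagellar transport protein, gave -1.23 and 0.36, RPL34 -0.58 and 0.23, RPS25 -0.90 and 0.18 and FTL -0.87 and 0.70. Other genes with a strongly negative difference of the effects were LINC00460, a long noncoding RNA (-2.04), NEK7 (-1.91), HES4, a repressor of the Notch pathway (-1.81), CDC42EP5 (-1.79), SCG5 (-1.78) and SPTSSA, a subunit of serine palmitoyltransferase (-1.69).

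**Figure D5:**
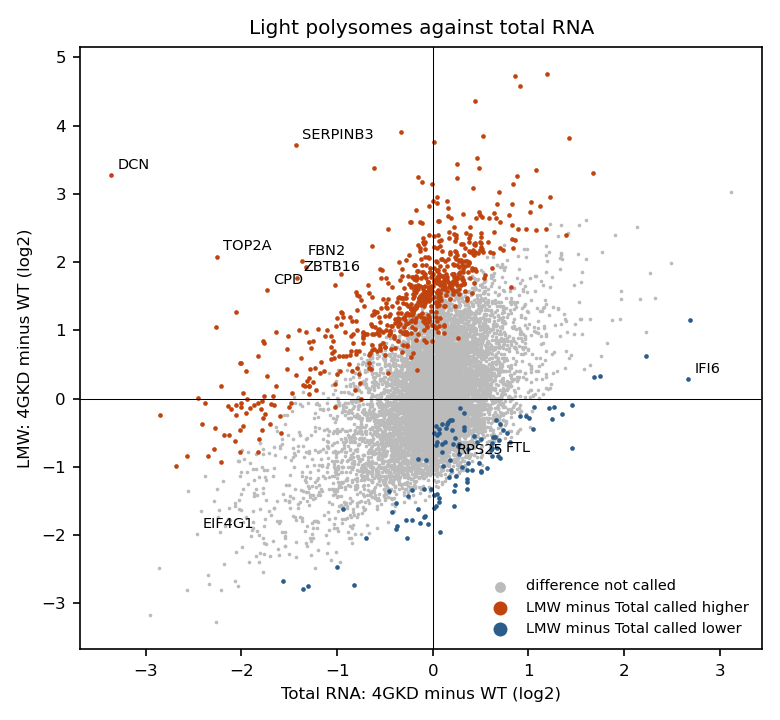
Difference 4GKD minus WT (log2) in light polysomes (vertical) against that in total RNA (horizontal), 1 point for each of 10157 genes. Genes whose effect in LMW exceeded that in Total (orange, 687) lie above the diagonal of equal effects, DCN farthest at 3.27 in LMW and -3.36 in Total. The 113 with a lower effect in LMW (blue) lie below it. Many have the same sign in both, such as CDH1 (4.75 in LMW, 1.20 in Total). Opposite calls were 90 genes higher in LMW and lower in Total and 5 the other way.

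Against heavy polysomes, 412 of the 1047 genes called higher in LMW (39.4%) were also called higher in HMW, which are 69.7% of those higher there, and 2 were called lower. Of the 518 called lower, 236 (45.6%) were also lower in HMW, which are 56.9% of those lower there, and 0 were higher. The difference of the effects was called higher in LMW for 1068 genes (10.5%) and lower for 541 (5.33%). In the fit of all 12 arrays 0 genes were called in this difference by limma, with 1154 at an unadjusted p under 0.05, and 0 were called without either LMW pair.

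Among the genes named by rule for it, the difference between LMW and HMW was highest for EPRS1 (2.40) and TOP2A (2.24). NAA15, the ribosome anchor of an N-terminal acetyltransferase (2.21), UBE2O, a ubiquitin-conjugating enzyme (2.13), and CC2D1A (2.06) came after them. Then came GART, of purine synthesis (2.01), MCM2 (1.98) and EMC1, of the membrane protein complex that inserts proteins into the endoplasmic reticulum (1.96). NAA15 rose by 2.89 in LMW, with 0.68 in HMW and -0.00 in Total. Among the genes named by rule for this difference, the most negative was KIAA1143 (-2.34), with 5.90 and 6.14 in 4GKD LMW, against 6.51 and 8.42 in WT LMW. DYNLT3, a dynein light chain (-1.97), the ubiquitin-like modifier UFM1 (-1.83) and NEK7 (-1.74) followed. Next were LYRM7, an assembly factor of respiratory complex III (-1.72), FAM98B (-1.71), PDZD8 (-1.70) and CENPH (-1.67). AKAP9, given above, is not among the genes named by this rule. DYNLT3, LYRM7, FAM98B and PDZD8 were not called in LMW itself and were called higher in HMW.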

How the data were processed

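The deposited intensities are linear values per probe set, and RMA is named in the submitters' processing notes. Its version and the arrays normalised in one run are not stated there. Array medians were 22.61 to 24.37, and the number of arrays limits the precision. Values were turned to log2. Of 54675 probe sets, 41097 had 1 symbol, 1801 several and 11777 none listed. LMW arrays, and the differences LMW minus Total and LMW minus HMW, were fitted with genotype and treatment in limma 3.58.1 (R 4.3.3; eBayes with a trend, Benjamini-Hochberg at 0.05). Treatment pairs the arrays by title. Of the genes named below by size, the 12 each way had the same sign in both pairs. They also had a log2 value of at least 6 in both LMW arrays of the genotype where they were higher. The 8 each way had the same sign in both pairs and at least 6 in both LMW arrays of either genotype. Genes were named by rule: the eIF4F list, the 12 highest and lowest called in LMW, the 8 each way in each difference between preparations, up to 6 each way called oppositely in Total, 3 each way by difference between pairs, and in each list the 3 highest and lowest. Members and all 39 lists (878 genes tested) were chosen with earlier results of these data known. Scripts were tested on simulated data. Alternatives changed the filter, the choice of probe sets, an intensity-dependent loess correction, the eBayes settings, the treatment block, the arrays fitted and the pair left out. Protein lengths were not used here.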

Additional observations from a re-analysis of the deposited data

Results flagged for a closer look

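For 11 genes the effect of silencing in light polysomes was called in the opposite direction to that in total RNA. These genes were picked by their opposite calls. The difference of the effects uses the same arrays, so its calls for them add no separate support. In the fit of all 12 arrays, 85 genes were called higher and 3 lower in this difference. The difference, LMW minus Total on the log2 scale, was 6.62 for DCN, 5.14 for SERPINB3, 4.34 for TOP2A, 3.38 for FBN2, 3.33 for CPD and 3.19 for ZBTB16, which rose in LMW. It was -1.68 for IFRD1, -1.59 for IFTAP, -1.58 for FTL, -1.09 for RPS25 and -0.81 for RPL34, which fell in LMW. The first 6 were taken from 90 genes higher in LMW and lower in Total by the smaller of the sizes in LMW and Total, and the last 5 are all those lower in LMW and higher in Total. The IFRD1 value in LMW was -0.27 in the mock pair and -2.39 in the 10 Gy pair.

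The pairs differed most in LMW for 6 genes, 3 each way, named by that size and with differences of opposite sign in the pairs. In the mock pair DDIAS (0.03) and KATNIP (-0.08) hardly differed between 4GKD and WT. The 10 Gy pair minus the mock pair was -3.85 for RAD23B, a damage recognition partner of XPC, -3.65 for DDIAS, an anti-apoptotic factor, and -3.53 for DNAJB14, a co-chaperone of the endoplasmic reticulum. It was 2.44 for H1-2, a linker histone, 1.84 for LINC01003 and 1.75 for KATNIP. With 1 array for each condition, these differences were not tested. RAD23B had log2 values of 11.03 and 9.43 in 4GKD LMW, against 9.29 and 11.53 in WT LMW, and H1-2 had 7.63 and 8.14 in 4GKD LMW, against 8.22 and 6.29 in WT LMW.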

How the results depend on the processing

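Counts that moved by over 1.5 times are given as genes called higher and lower in 4GKD. For LMW (1047 and 518), they were 598 and 345 without probe sets ending in _x_at or _s_at, which leaves 7248 genes, and 231 and 55 with no treatment block; a fit of all 12 arrays called 873 lower, and leaving out either LMW pair in it gave 744 to 970 higher and 264 to 963 lower. For LMW minus Total (687 and 113), they were 391 and 60 without those probe sets, 217 and 12 with no treatment block, 85 and 3 in the 12-array fit and 13 to 18 and 0 without a pair, and 180 were lower with no filter. For LMW minus HMW (1068 and 541), they were 544 and 221 with the median of all probe sets, 372 and 176 without those probe sets, 665 and 292 without a trend, 0 and 0 in the 12-array fit and 0 without either pair; 289 were lower with no treatment block. By limma at an unadjusted p under 0.05 the 12-array fit held 1154 genes. With the median of probe sets 1001 genes were at least 2-fold higher in the mock pair and 885 in the 10 Gy pair. The sign turned for DDIAS without the 10 Gy pair (0.03, against -3.63 without the mock pair), EGFR with the median (-0.15), GINS2 with the median and without those probe sets (0.06 in both) and PSMD4 without those probe sets (-0.04). Without those probe sets the lists were shorter. Called higher in LMW were then 7 of 10 synthetase, 9 of 15 chaperone, 14 of 18 keratin and junction and 2 of 3 mitochondrially encoded genes. The causes were not tested. The 12-array fit takes arrays of one condition as independent and gives each gene 1 spread for the 3 preparations, moderated towards its trend with intensity. Without an LMW pair it holds 1 array of each genotype in LMW and takes its spread from HMW and Total. Such counts do not test LMW on its own. Loess correction moved the median of all genes to -0.061. Protein length of called genes was not run.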

Other observations

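Counts of the lists not described above stand against 10.3% of all genes called higher and 5.10% called lower in LMW, and many lie near or below these shares. Of 20 glycolysis genes, 3 were called higher and 0 lower in LMW, with a median of 0.28; the glucose transporter SLC2A1 had 8.44 and 7.90 in 4GKD cells, against 7.03 and 5.87 in WT cells, and rose by 1.72, and hexokinase HK1 rose by 1.37, with -0.12 in Total. Of 25 integrated stress response genes, 2 were called higher and 3 lower. HSPA5 (BiP, the HSP70 of the endoplasmic reticulum) had 11.81 and 11.62 in 4GKD cells, against 9.02 and 9.63 in WT cells, and rose by 2.39, with 0.24 in Total, while ATF3 rose by 1.46. Serine synthesis enzymes PSPH and PSAT1 fell by 1.78 and 1.20. Of 29 genes of MYC, polyamine and nucleotide synthesis, 5 were called higher and 3 lower, GART by 1.78 and nucleolin NCL by 1.39 upwards and spermidine synthase SRM by 1.04 downwards. Of 15 cytokine and chemokine genes 2 were called higher and 0 lower; IL24 rose by 3.03 in LMW and by 3.12 in Total.

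Of 23 splicing factor and kinase genes 3 were called each way. SON rose by 1.85 and SRPK2 by 1.75, while SRSF10 fell by 1.75 and TRA2B by 0.93. Of 32 zinc finger genes 8 were called higher and 1 lower, led by ZNF791 at 2.18. Both WT LMW arrays were under 6 for 3 of these 8, and all 6 WT arrays for 1. EGFR rose by 1.96, with 10.28 and 10.41 in 4GKD cells, against 8.17 and 8.60 in WT cells, and -0.11 in Total, and the median of its probe sets gave -0.15. Of 27 proteasome subunits 2 were called higher, PSMD1 by 1.71 and PSMD4 by 0.92, and 0 lower. The apoptosis list held 1 call each way among 24, MCL1 at 0.78 and BNIP3 at -1.55, with a median of -0.13. Of 9 histone genes 1 was called higher and 2 lower, H2AC6 at 1.58, H2AZ1 at -1.62 and H2AX at -1.30. Both WT LMW arrays of H2AC6 were under 6. Translation elongation and termination genes gave 2 of 7 higher, GSPT1 at 1.11 and EEF2 at 0.62. Of 26 genes of the ID and TGF-beta list 5 were called higher and 2 lower, and FST (follistatin) rose by 2.13 and INHBA by 2.11. Both WT LMW arrays were under 6 for 2 of the 5, and all 6 WT arrays for 1. Both 4GKD LMW arrays were under 6 for 1 of the 2 called lower. Of 26 sterol and fatty acid genes 3 were called higher and 0 lower, FASN among them at 1.48. The immediate-early list gave 1 of 20 higher and 0 lower, and the 6 nuclear noncoding RNAs gave 0 calls by limma.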
